A study of Mus musculus with 24 samples.

Results

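The SLC25 genes encode the mitochondrial carrier family, and 45 protein-coding members were found among the 41549 genes of the islet RNA-seq table. They were all rows of biotype protein_coding whose symbol begins with Slc25a, with the exception of Slc25a20 and Slc25a17. Of these, 38 passed the filter on low counts and were tested, together with 15916 genes in all. The libraries came from dispersed pancreatic islet cells of wild type mice. The cells carried 50 pmol of an antisense oligonucleotide (ASO), given by lipid transfection, that was either a control (Ctr) or directed against the 5′ fragment of tRNA-Glu-CTC (αGlu). They were then exposed to 0.5 mM palmitate (PA) bound to bovine serum albumin, or to 0.75% albumin without PA (BSA). Each combination of ASO and exposure (Ctr BSA and αGlu BSA, Ctr PA and αGlu PA) was represented by 6 libraries, 3 from each of 2 labelled batches. The labels do not say what a batch is. Every group had been dispersed and transfected, so no untouched islet stood among them. By the methods, a replicate is a preparation from 1 animal, and the conditions within a replicate share that animal. The labels do not say which libraries belong to which animal, so the fits treat the libraries as unpaired, and p-values measure the spread between these libraries.

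Mitochondrial carriers are small proteins of the inner mitochondrial membrane that move metabolites, nucleotides, phosphate and cofactors between the cytosol and the matrix. The adenine nucleotide translocases exchange ADP for ATP, the phosphate carrier supplies phosphate for ATP synthesis, and the citrate, malate and aspartate-glutamate carriers link the tricarboxylic acid cycle with NADH shuttles and lipid synthesis in the cytosol. In β-cells these exchanges belong to the coupling of glucose metabolism with insulin release.

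The oligonucleotide and its target are shown because they define the αGlu groups. Capitals in the target mark the 20 bases, of 21, that pair with the ASO. The target is the stretch listed with the ASO and not the whole fragment, which the paper reports as longer.
αGlu ASO: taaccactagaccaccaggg
target: tCCCTGGTGGTCTAGTGGTTA

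Library totals ran from 18214719 to 35001979 counts. The RNA was that of islet cells: the summed level of 8 β-cell markers lay between 83500 and 151000 CPM (counts scaled to library size with TMM factors) in every library. Markers of β-cells and of other cell types moved with PA. Of the 8 β-cell markers, 2 rose and 3 fell in Ctr, and 2 rose and 2 fell in αGlu (edgeR adjusted p below 0.05). Over all tested genes, 15.5% rose and 14.5% fell in Ctr, and 14.4% rose and 14.2% fell in αGlu. The sum of 8 fibroblast and stellate cell markers was 134 to 563 CPM in Ctr BSA and 11.2 to 63.1 CPM in Ctr PA, and 88.6 to 1079 CPM in αGlu BSA against 12 to 172 CPM in αGlu PA. With PA, 8 of 10 macrophage markers fell in Ctr and 1 of 10 in αGlu. The sum of these 10 was 82.3 to 399 CPM in Ctr BSA (median 151, highest S21) and 86.1 to 131 CPM in Ctr PA. In αGlu it was 93.3 to 183 CPM in BSA and 81.7 to 141 CPM in PA, so the groups overlapped under both ASOs. Of 8 acinar markers, 6 fell under each ASO. Of 7 markers of α, δ and PP cells, 3 fell in Ctr and 1 in αGlu. Between the ASOs no marker of Schwann cells and enteric glia passed with edgeR. An unadjusted p below 0.05 was found for 6 of 7 in each of BSA and PA, beside 2.90% and 3.38% of all tested genes. The median log2 fold change of the 7 was -2.52 in BSA and -3.43 in PA. With the control ASO their sum ran from 10.02 to 55.9 CPM (BSA) and 11.8 to 43.03 CPM (PA). With αGlu it ran from 6.78 to 17.7 CPM (BSA) and 7.8 to 11.2 CPM (PA). The part of these markers in the ASO comparisons of the carriers was not tested. In the interaction 0 of 10 macrophage markers passed with edgeR and 7 had an unadjusted p below 0.05, beside 2.09% of all tested genes. In bulk RNA, fewer cells of a type and less RNA per cell cannot be told apart. Between batches, 8 acinar markers summed to 3060 to 22700 CPM in batch 1 and 222 to 601 CPM in batch 2. Single libraries also stood apart. The Ctr BSA library S1 had 15.9% of its counts on ribosomal RNA genes, against 0.549% to 3.47% in the other libraries. The Ctr PA library S23 had the largest median absolute log2 difference from the other libraries of its group and batch (0.302, with S1 at 0.283 and the rest at 0.188 or less), and it held the highest or the lowest value of its group for 15 and 10 of the 38 carriers. Results that rest on S1 or S23 are given with and without them.

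The carriers spanned a wide range of levels. In the deposited TPM, which are scaled by transcript length and can be compared between genes, the adenine nucleotide translocase Slc25a5 was the highest at 275 ± 52.6 TPM (SD, n = 24 libraries). The glutathione carrier Slc25a39 stood at 166 ± 22.3 TPM, the phosphate carrier Slc25a3 at 163 ± 11.1 TPM and the translocase Slc25a4 at 146 ± 20.2 TPM. The differences among these last genes were within their spread. The citrate carrier Slc25a1 followed at 98 ± 18.2 TPM. In all, 4 members exceeded a mean of 100 TPM, 20 lay between 10 and 100 TPM, and 14 tested members were below 10 TPM.

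**Figure D1:**
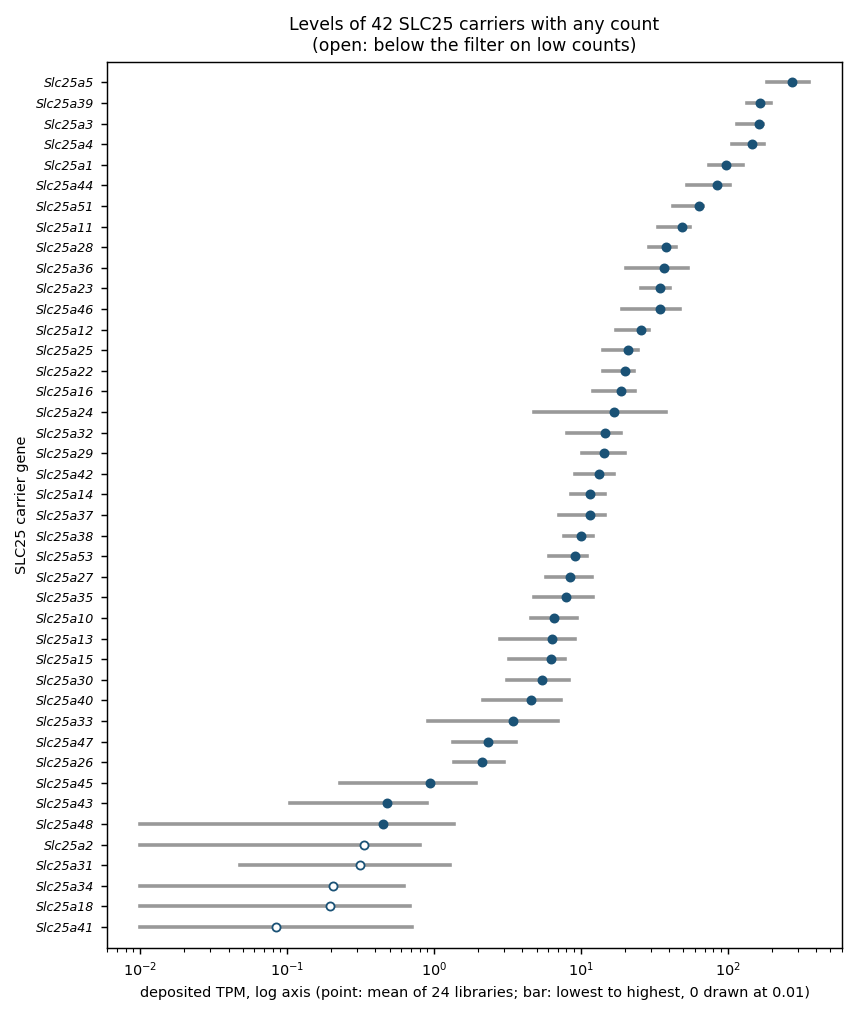
Mean deposited TPM of 42 carriers with any count (log axis). Points are means of 24 libraries, bars run from the lowest to the highest library (0 drawn at 0.01), and open points are members below the filter on low counts. Slc25a5 leads at 275 TPM, and Slc25a24 has a wide bar for its level, from 4.79 to 37.8 TPM.

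The 7 members below the filter were at or near 0. Slc25a21, a carrier of oxodicarboxylates, and Slc25a54 had 0 counts in all 24 libraries, which for the libraries together allows up to 0.00471 CPM (3 counts, counting error only). Slc25a31, the testis-type translocase, had 157 counts over all libraries, of which 30 came from S23. Slc25a34 had 120 counts, the ornithine carrier Slc25a2 had 102, the glutamate carrier Slc25a18 had 86, and the ATP-Mg/phosphate carrier Slc25a41 had 24.

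PA raised more carriers than it lowered in cells with the control ASO. In Ctr PA against Ctr BSA, 16 of 38 carriers passed the test (edgeR adjusted p below 0.05), where 30% of all tested genes did. Of these 16, 11 rose (15.5% of all genes) and 5 fell (14.5% of all genes). The median log2 fold change was 0.12 over the carriers and 0.01 over all tested genes. By the cut-off that the study used (more than a 2-fold difference, unadjusted p below 0.05), 2 carriers were called, Slc25a48 and Slc25a45, beside 5.91% of all genes.

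With the αGlu ASO the picture was alike in direction. In αGlu PA against αGlu BSA, 12 of 38 carriers passed, beside 28.5% of all genes. Here 10 rose (14.4% of all genes) and 2 fell (14.2% of all genes), and the median log2 fold change was 0.13 against 0.01 over all genes. Slc25a48 was the 1 carrier past the cut-off of the study, beside 5.57% of all genes. The PA comparisons share no library, but both come from the same fit, and by the methods the conditions of a replicate share an animal. Across the PA comparisons, 8 carriers were called in both, 7 higher and 1 lower. That is 50% of those called in Ctr and 66.7% of those called in αGlu. The sign was the same in 35 of 38 carriers. All 8 carriers called in Ctr alone and all 4 called in αGlu alone had the same sign under the other ASO. These overlaps were not counted over all tested genes, so they are not read as particular to the carriers.

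**Figure D2:**
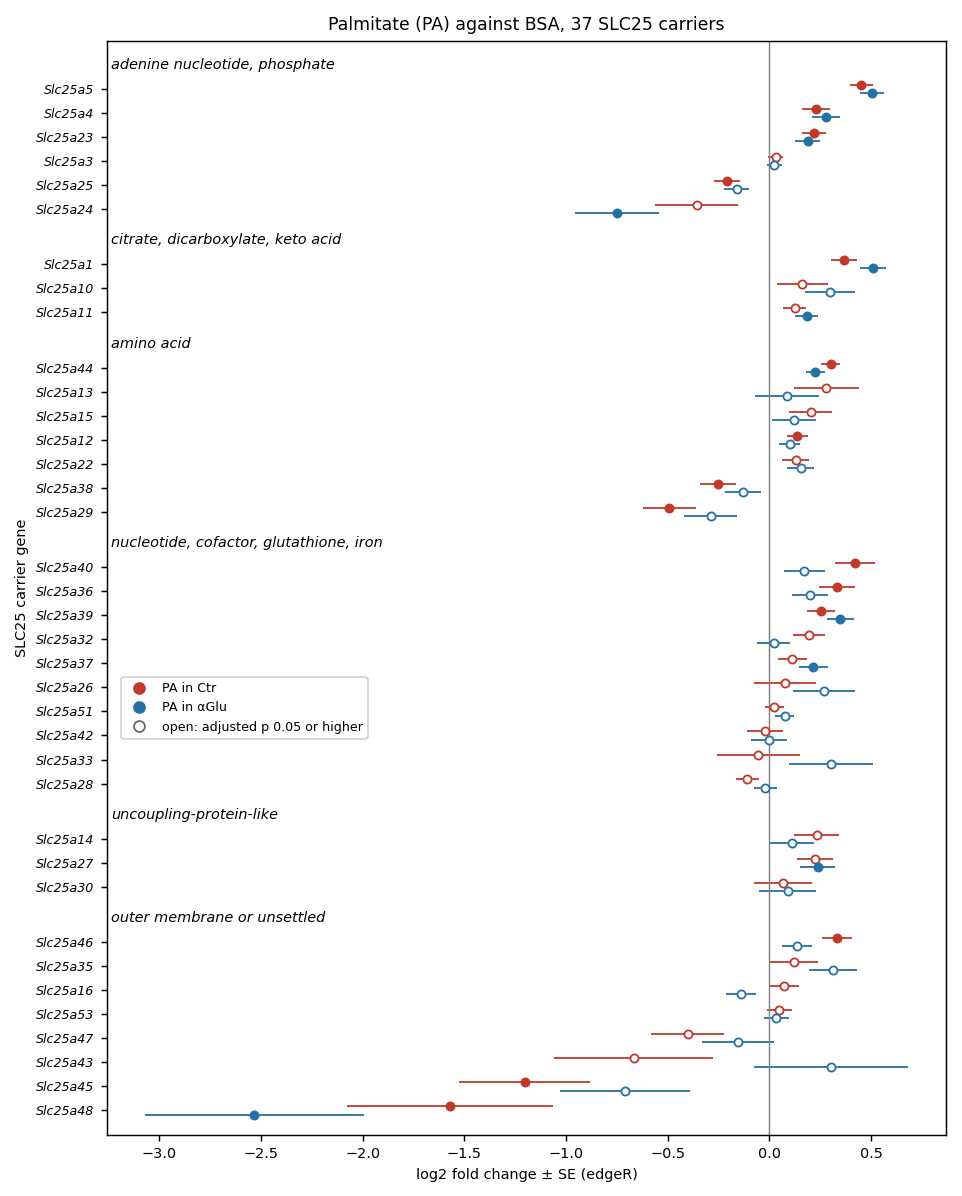
Log2 fold change with PA (± SE, edgeR) of 37 tested carriers, by role, in Ctr (red) and αGlu (blue) cells. Filled points passed an adjusted p of 0.05. Most points lie between 0 and 0.51, and Slc25a48, at -1.57 and -2.53, lies farthest to the left.

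The calls depended on level, for the carriers and for all genes. In Ctr, 10 of the 24 tested carriers at 10 TPM or more rose and 3 fell, whereas 1 of the 14 below 10 TPM rose and 2 fell. In αGlu the counts were 9 higher and 1 lower at 10 TPM or more, and 1 higher and 1 lower below. Of all tested genes at 10 TPM or more, 22.4% were higher and 14% lower in Ctr, and 21.2% and 14% in αGlu. Below 10 TPM, 7.71% of all tested genes were higher and 15.1% lower in Ctr, and 6.8% and 14.4% in αGlu. The 45 carriers together took 0.151% to 0.186% of all counts in Ctr BSA and 0.196% to 0.208% in Ctr PA. The lowest Ctr BSA value was that of S1. In αGlu the share was 0.177% to 0.185% in BSA and 0.195% to 0.206% in PA. The BSA and PA libraries did not overlap in this share under either ASO. It is a share of all counts, with those on insulin and ribosomal RNA genes included. Other gene sets were not counted in this way, so the lack of overlap is not read as particular to the carriers.

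Among the adenine nucleotide and phosphate carriers, 3 of 6 tested members rose and 1 fell under each ASO. That was 66.7% called under each, beside 30% of all tested genes in Ctr and 28.5% in αGlu. Slc25a5 (ENSMUSG00000016319, chrX:36795597-36798808, GRCm38), the adenine nucleotide translocase of growing cells, ranged from 129 to 145 CPM in Ctr BSA (median 138) and from 171 to 204 CPM in Ctr PA (median 186). In αGlu it ranged from 119 to 146 CPM in BSA (median 135) and from 162 to 209 CPM in PA (median 196). Every PA library lay above every BSA library. Its log2 fold change was 0.45 ± 0.06 (SE) in Ctr (edgeR adjusted p = 2.55e-06) and 0.50 ± 0.06 in αGlu (edgeR adjusted p = 6.1e-07). Within batch 1 and batch 2 alone the log2 fold change of Slc25a5 was 0.42 and 0.48 in Ctr, and 0.49 and 0.51 in αGlu.

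The translocase of heart and muscle, Slc25a4 (chr8:46207168-46211062), rose less. It ranged from 98.1 to 127 CPM in Ctr BSA (median 115) and from 109 to 148 CPM in Ctr PA (median 135), where S23 was the lowest library. In αGlu it ranged from 99.4 to 124 CPM in BSA (median 114) and from 119 to 145 CPM in PA (median 140.2). The groups overlapped under both ASOs. For Slc25a4 the log2 fold change was 0.23 ± 0.07 in Ctr (edgeR adjusted p = 0.013) and 0.28 ± 0.07 in αGlu (edgeR adjusted p = 0.00326). Without S1 and S23 the Ctr value of Slc25a4 was 0.34 (edgeR adjusted p = 2.39e-05). The translocases are close copies of one another and have processed pseudogenes, so reads may have been divided among them.

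The phosphate carrier Slc25a3 gave values close together in all groups. Its group medians lay at 320.1 CPM in Ctr BSA, 328 CPM in Ctr PA, 327 CPM in αGlu BSA and 329.7 CPM in αGlu PA. With PA its log2 fold change was 0.03 in Ctr (95% interval -0.04 to 0.11, edgeR adjusted p = 0.55) and 0.02 in αGlu (-0.05 to 0.10, edgeR adjusted p = 0.671). Both intervals lie below the fitted changes of Slc25a4 and Slc25a5, which have errors of their own. The genes were not tested against each other.

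The calcium-regulated ATP-Mg/phosphate carriers moved in different directions. Slc25a23 rose by a log2 fold change of 0.22 ± 0.06 in Ctr and 0.19 ± 0.06 in αGlu (edgeR adjusted p = 0.00748 and 0.0202). The values of Slc25a23 ran from 53.1 to 69.8 CPM in Ctr BSA and from 60.4 to 82.2 CPM in Ctr PA, so the groups overlapped. The αGlu call for Slc25a23 was lost without S18 (edgeR adjusted p = 0.0522). Slc25a25 was lower in Ctr PA (-0.21 ± 0.06, edgeR adjusted p = 0.0163), but without S1 and S23 its log2 fold change was -0.13 and the call was lost. In αGlu Slc25a25 had a log2 fold change of -0.16 ± 0.06 (edgeR adjusted p = 0.0598).

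Slc25a24 ranged from 13.7 to 41.9 CPM in αGlu BSA (median 22.7) and from 6.30 to 30.4 CPM in αGlu PA (median 14.6). It fell in αGlu, with a log2 fold change of -0.75 ± 0.21 (edgeR adjusted p = 0.00773). In Ctr the value of Slc25a24 was -0.36 ± 0.20 (edgeR adjusted p = 0.196), with 12 to 44.2 CPM in BSA and 8.25 to 37.0 CPM in PA. In each of the 4 groups all 3 batch 1 libraries lay above all 3 batch 2 libraries, and within batch 1 and batch 2 alone the αGlu value of Slc25a24 was -0.49 and -1.06. The fibroblast and stellate cell markers fell in the same comparisons (6 of 7 tested in Ctr and 4 of 7 in αGlu), and their part in the values of Slc25a24 was not tested.

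Among the carriers of citrate, dicarboxylates and keto acids, Slc25a1 stood out. Slc25a1 (ENSMUSG00000003528, chr16:17925211-17928219), which exports citrate for lipid synthesis, ranged from 57.1 to 77.4 CPM in Ctr BSA (median 67.9) and from 77.04 to 98.5 CPM in Ctr PA (median 83.7). The highest Ctr BSA library was S1, which alone overlapped with the Ctr PA libraries. In αGlu, Slc25a1 ranged from 55.0 to 69.7 CPM in BSA (median 64.1) and from 77.3 to 102 CPM in PA (median 90.6), with no overlap. The log2 fold change was 0.37 ± 0.06 in Ctr (edgeR adjusted p = 0.000106) and 0.51 ± 0.06 in αGlu (edgeR adjusted p = 1.9e-06). Without S1 the Ctr value of Slc25a1 was 0.44. Within batches it was 0.30 and 0.43 in Ctr, and 0.44 and 0.58 in αGlu.

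The oxoglutarate-malate carrier Slc25a11, a part of the malate-aspartate shuttle, passed the test in αGlu (0.18 ± 0.06, edgeR adjusted p = 0.0168) but not in Ctr (0.12 ± 0.06, edgeR adjusted p = 0.102). The dicarboxylate carrier Slc25a10 passed in neither, at 0.16 ± 0.12 in Ctr and 0.30 ± 0.12 in αGlu (edgeR adjusted p = 0.34 and 0.0721). These results moved with single libraries. The Ctr value of Slc25a10 was 0.08 without S7, and Slc25a11 passed in Ctr without S19 (edgeR adjusted p = 0.0332). In αGlu, Slc25a10 passed without S12 (edgeR adjusted p = 0.02) or S11 (edgeR adjusted p = 0.0473). S11 is a Ctr PA library, which enters the αGlu comparison only through the fit shared by all 24 libraries. Without S11 the αGlu value of Slc25a10 stayed at 0.30. The interaction test called no carrier.

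The amino acid carriers were divided. In Ctr, 2 of 7 tested rose and 2 fell, and in αGlu 1 rose and none fell. That was 57.1% called in Ctr and 14.3% in αGlu, beside 30% and 28.5% of all tested genes. Slc25a44 (ENSMUSG00000050144, chr3:88410494-88425141), which imports branched-chain amino acids, ranged from 84.9 to 106 CPM in Ctr BSA (median 94.6) and from 99.5 to 133 CPM in Ctr PA (median 117). In αGlu it ranged from 89.8 to 109 CPM in BSA (median 102) and from 96.5 to 135 CPM in PA (median 123). The groups of Slc25a44 overlapped across batches. With batch as a term, the log2 fold change was 0.30 ± 0.05 in Ctr (edgeR adjusted p = 3.07e-05) and 0.23 ± 0.05 in αGlu (edgeR adjusted p = 0.000736).

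Slc25a12, the aspartate-glutamate carrier of the malate-aspartate shuttle, was called in Ctr at 0.14 ± 0.05 (edgeR adjusted p = 0.0453), a call that was lost in 13 of 24 fits without 1 library (without S2, S3, S4, S5, S7, S8, S9, S11, S13, S15, S16, S17 or S19). In αGlu its value was 0.10 ± 0.05 (edgeR adjusted p = 0.149). The second aspartate-glutamate carrier, Slc25a13, had a value of 0.28 ± 0.16 in Ctr and 0.09 ± 0.16 in αGlu (edgeR adjusted p = 0.192 and 0.731), and without S1 and S23 the Ctr value was 0.07. Without single libraries the αGlu value of Slc25a13 ran from 0.03 (without S2) to 0.17 (without S6). The glutamate carrier Slc25a22 had values of 0.13 ± 0.07 and 0.15 ± 0.07 (edgeR adjusted p = 0.152 and 0.0909). Without S9 the Ctr value of Slc25a22 was 0.08, and its αGlu value passed without S2 (edgeR adjusted p = 0.0364) or S9 (edgeR adjusted p = 0.0486). S9 is a Ctr BSA library, and without it the αGlu value of Slc25a22 stayed at 0.15.

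Slc25a29, a carrier of basic amino acids, fell in Ctr, from 9.76 to 21.5 CPM in BSA (median 15.9) to 9.4 to 14.7 CPM in PA (median 10.4). Its log2 fold change was -0.49 ± 0.13 (edgeR adjusted p = 0.00624). The highest Ctr BSA value of Slc25a29 was S1, and without S1 and S23 the log2 fold change was -0.27, still past the test. In αGlu it was -0.29 ± 0.13 (edgeR adjusted p = 0.101). Slc25a38, a glycine carrier needed for heme synthesis, was lower in Ctr at -0.25 ± 0.09 (edgeR adjusted p = 0.035). The call for Slc25a38 was lost without S1 (edgeR adjusted p = 0.0892) and without S23 (edgeR adjusted p = 0.0657), and likewise without S3, S5, S17 or S19.

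The carriers of nucleotides, cofactors, glutathione and iron rose where they were called, and none fell. These were 4 of 11 in Ctr (36.4%) and 3 of 11 in αGlu (27.3%), beside 30% and 28.5% of all tested genes. Slc25a39 (ENSMUSG00000018677, chr11:102402969-102408675), which brings glutathione into the matrix, ranged from 138 to 182 CPM in Ctr BSA (median 144) and from 156 to 205 CPM in Ctr PA (median 177). S1 was the highest Ctr BSA library and the one that overlapped with Ctr PA, whose lowest library was S23; the next Ctr BSA library had 154 CPM. In αGlu, Slc25a39 ranged from 135 to 155 CPM in BSA (median 145) and from 166 to 203 CPM in PA (median 184), with no overlap. The log2 fold change was 0.25 ± 0.07 in Ctr (edgeR adjusted p = 0.00609) and 0.35 ± 0.07 in αGlu (edgeR adjusted p = 0.000374), and without S1 and S23 the Ctr value was 0.38.

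Slc25a40, the close relative of Slc25a39, ranged from 8.63 to 15.3 CPM in Ctr BSA (median 12.7) and from 12.7 to 24.3 CPM in Ctr PA (median 15.1). The highest library was S23. Its log2 fold change in Ctr was 0.42 ± 0.10 (edgeR adjusted p = 0.00253) and, without S1 and S23, 0.27 with the call kept. In αGlu the value of Slc25a40 was 0.17 ± 0.10 (edgeR adjusted p = 0.207). Its level lay far below that of Slc25a39 per length, at 4.57 ± 1.01 TPM.

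Slc25a36, a pyrimidine nucleotide carrier, had 1 library far above the others. It ranged from 93.5 to 131 CPM in Ctr BSA (median 114), and in Ctr PA from 122 to 134 CPM in 5 libraries and 203 CPM in S23. The log2 fold change in Ctr was 0.33 ± 0.09 (edgeR adjusted p = 0.00585). Without S23 it was 0.21 (edgeR adjusted p = 0.0102), and without S1 and S23 it was 0.17, with the call kept. In αGlu the value of Slc25a36 was 0.20 ± 0.09 (edgeR adjusted p = 0.0936). The other pyrimidine nucleotide carrier, Slc25a33, passed in neither comparison (-0.05 ± 0.21 in Ctr and 0.30 ± 0.21 in αGlu, edgeR adjusted p = 0.871 and 0.29).

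Slc25a37, a mitochondrial iron importer, passed in αGlu (0.22 ± 0.07, edgeR adjusted p = 0.0254) and not in Ctr (0.11 ± 0.07, edgeR adjusted p = 0.248), and the αGlu call was lost without S4, S8 or S10. The NAD carrier Slc25a51, at 63.6 TPM one of the higher carriers, had log2 fold changes of 0.02 ± 0.05 and 0.08 ± 0.05, neither of which passed.

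Of the 3 uncoupling-protein-like carriers, none passed in Ctr, and Slc25a27 (UCP4) passed in αGlu at 0.24 ± 0.09 (edgeR adjusted p = 0.0415). That was 0% called in Ctr and 33.3% in αGlu, beside 30% and 28.5% of all tested genes. In Ctr the value of Slc25a27 was 0.22 ± 0.09 (edgeR adjusted p = 0.0536). The αGlu call for Slc25a27 was lost without S4, S10, S12, S14, S18, S22 or S24 (edgeR adjusted p up to 0.128).

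The largest changes with PA were falls of carriers of low level. Slc25a48 (ENSMUSG00000021509, chr13:56437960-56472367), linked to choline import into mitochondria, ranged from 0.46 to 1.61 CPM in Ctr BSA (median 0.64) and from 0.073 to 0.50 CPM in Ctr PA (median 0.28). In αGlu it ranged from 0.64 to 1.46 CPM in BSA (median 0.74) and from 0 to 0.27 CPM in PA (median 0.19), with no overlap. It had 346 counts over the 24 libraries, and 2 αGlu PA libraries had none. The log2 fold change of Slc25a48 was -1.57 ± 0.51 in Ctr (edgeR adjusted p = 0.0215) and -2.53 ± 0.54 in αGlu (edgeR adjusted p = 0.000977). The Ctr call was lost without S7 or S9, with an adjusted p of up to 0.0581 (edgeR), and S23 was the highest Ctr PA library. Without S1 and S23 the Ctr value of Slc25a48 was -2.02 (edgeR adjusted p = 0.00602).

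Slc25a45 ranged from 0.87 to 1.98 CPM in Ctr BSA (median 1.45) and from 0.25 to 0.95 CPM in Ctr PA (median 0.58). It fell in Ctr with a log2 fold change of -1.20 ± 0.32 (edgeR adjusted p = 0.00623), and within the batches the value was -1.20 in each. Without the Ctr BSA libraries S1 and S21, the 2 highest for Slc25a45, it was -0.87 and the call was lost. In αGlu the value of Slc25a45 was -0.71 ± 0.32 (edgeR adjusted p = 0.102). For Slc25a48 and Slc25a45, as for the other carriers, whether the fall of fibroblast, macrophage and acinar markers has a part in it was not tested.

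Slc25a46, an outer membrane protein of mitochondrial dynamics, rose in Ctr by 0.33 ± 0.07 (edgeR adjusted p = 0.00156). The values of Slc25a46 ran from 49.3 to 67.9 CPM in Ctr BSA and from 68.3 to 101 CPM in Ctr PA, without overlap, where 101 CPM was S23 and the next library had 73.3 CPM. Without S1 and S23 the log2 fold change was 0.21 and the call was kept. In αGlu it was 0.14 ± 0.07 (edgeR adjusted p = 0.181).

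**Figure D3:**
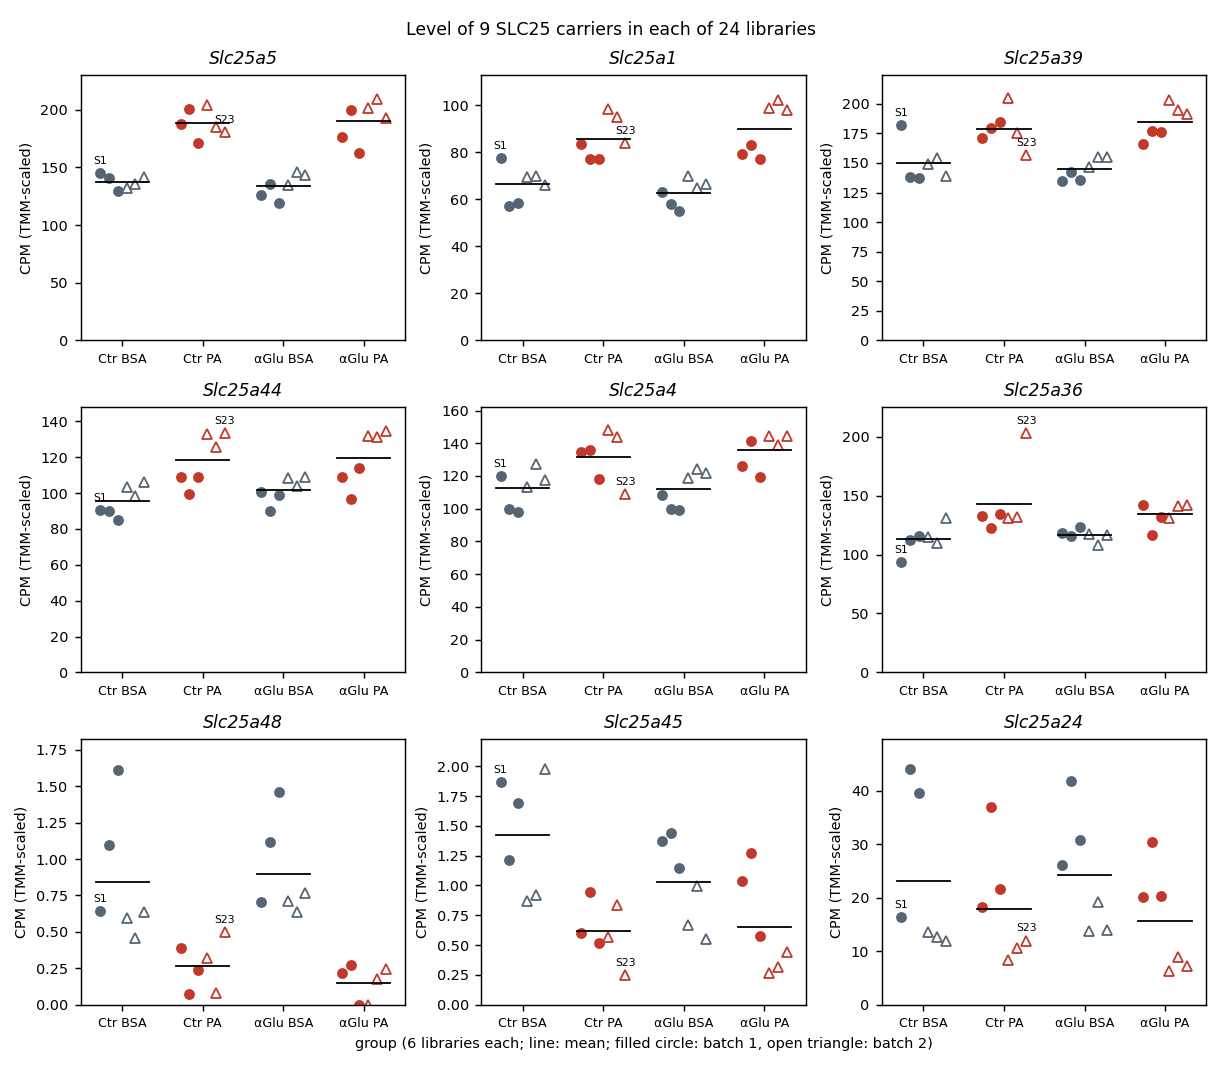
CPM of 9 carriers in each of the 24 libraries, by group (grey: BSA; red: PA). Filled circles are batch 1, open triangles batch 2, black lines group means, and the libraries S1 and S23 are marked. For Slc25a5 every PA library lies above every BSA library, for Slc25a36 S23 lies at 203 CPM above the other Ctr PA libraries, and for Slc25a24 the batch 1 libraries lie highest.

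No carrier passed the test between the ASOs. In αGlu BSA against Ctr BSA, 0 of 38 carriers passed with edgeR and 0 with DESeq2, beside 0% of all genes with edgeR. At an unadjusted p below 0.05 there were 0 carriers with edgeR and 1 with DESeq2, beside 2.90% of all genes with edgeR. In αGlu PA against Ctr PA, 0 passed with either tool (0% of all genes), and 2 carriers had an unadjusted p below 0.05 with each tool, beside 3.38% of all genes with edgeR. Without S23 none of them did with edgeR. The interaction, which tests whether PA acted differently under the ASOs, called 0 carriers with either tool (0% of all genes), and 0 had an unadjusted p below 0.05 with either, beside 2.09% of all genes.

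The median SE of the αGlu log2 fold changes was 0.09 over the 38 carriers. In BSA, the smallest p-values were those of Slc25a44 (0.09, 95% interval -0.01 to 0.19), Slc25a45 (-0.52, -1.17 to 0.14) and Slc25a12 (0.08, -0.03 to 0.19), each with an edgeR adjusted p of 1. Without S21 the value of Slc25a45 was -0.26. In PA, they were those of Slc25a40 (-0.26, -0.46 to -0.05), Slc25a16 (-0.16, -0.32 to -0.01) and Slc25a32 (-0.15, -0.31 to 0.02), each with an edgeR adjusted p of 0.993. Without S23 these last values were -0.17 for Slc25a40, -0.08 for Slc25a16 and -0.08 for Slc25a32, since S23 was a high Ctr PA library for all of them. In the interaction, the smallest p-values were those of Slc25a16 (-0.21, -0.43 to 0.01), Slc25a46 (-0.20, -0.42 to 0.02) and Slc25a43 (0.97, -0.17 to 2.11), each with an edgeR adjusted p of 0.999. Without S23 the interaction values were -0.13 for Slc25a16 and -0.11 for Slc25a46.

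**Figure D4:**
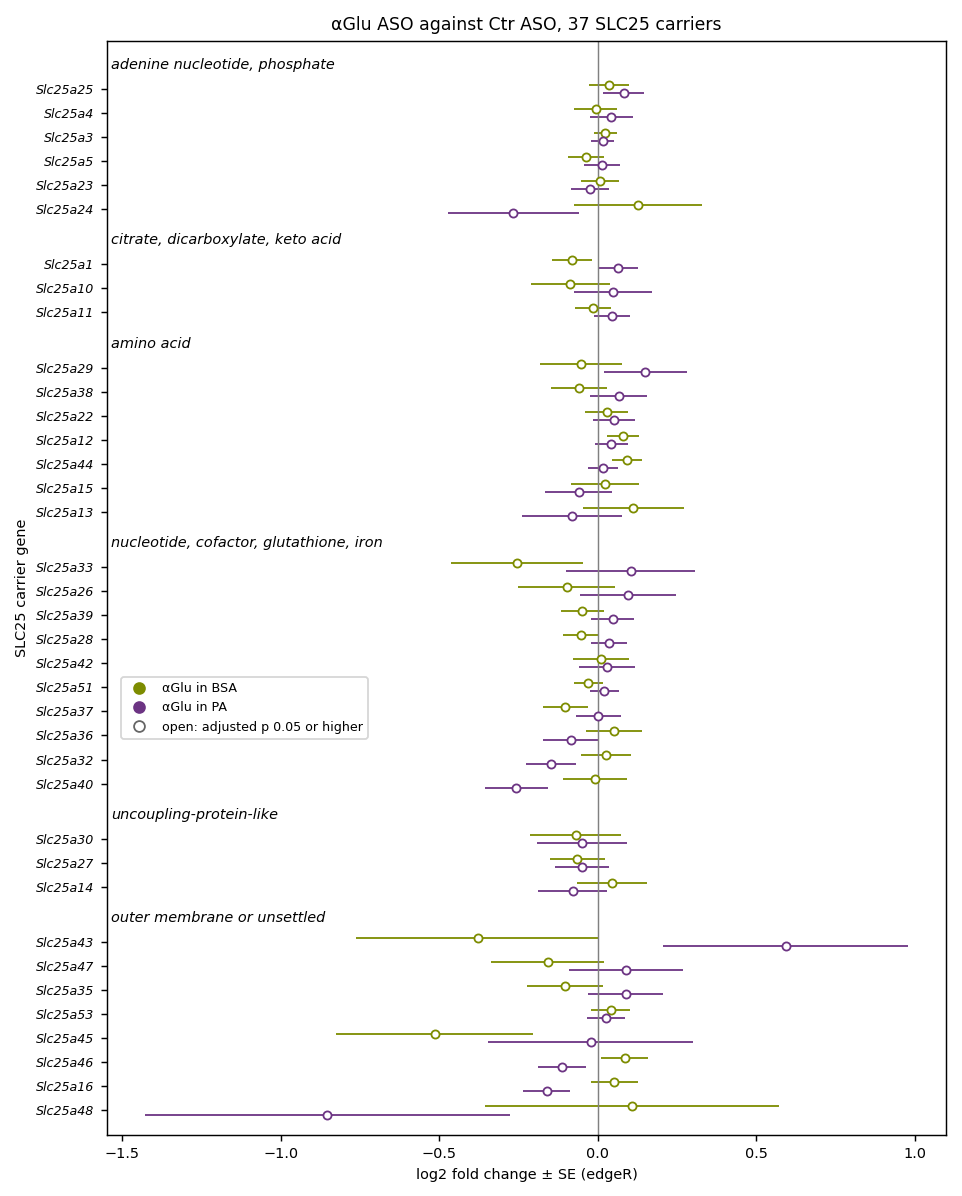
Log2 fold change of αGlu against Ctr ASO (± SE, edgeR) of 37 tested carriers, by role, in BSA (green) and PA (purple). All points are open, since none passed an adjusted p of 0.05, and the wide bars belong to carriers of low level such as Slc25a48, Slc25a45 and Slc25a43.

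More carriers passed the test between the batches than with PA. Between batches 12 libraries stand against 12 (median SE of the carriers 0.06), and with PA 6 against 6 (0.09). In batch 2 against batch 1, 26 of 38 carriers passed, beside 51.5% of all genes. Of these, 18 were higher in batch 2 (26.1% of all genes) and 8 lower (25.4% of all genes). By the cut-off of the study, 2 carriers were called, Slc25a33 and Slc25a24, beside 6.38% of all genes. At 10 TPM or more, 15 of 24 carriers were higher and 1 was lower, and below 10 TPM, 3 of 14 were higher and 7 lower. Of all tested genes, 35.7% were higher and 26.3% lower at 10 TPM or more, and 15.4% and 24.4% below.

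The lower carriers showed the larger differences. Slc25a33, the pyrimidine nucleotide carrier, ranged from 2.27 to 4.55 CPM in the 12 libraries of batch 1 (median 3.31) and from 0.68 to 1.76 CPM in the 12 of batch 2 (median 1.33), with no overlap. Its log2 fold change was -1.39 ± 0.15 (edgeR adjusted p = 2.58e-08). Slc25a24 ranged from 16.3 to 44.2 CPM in batch 1 (median 28.3) and from 6.30 to 19.3 CPM in batch 2 (median 12). The batches of Slc25a24 overlapped in part, and its log2 fold change was -1.36 ± 0.15 (edgeR adjusted p = 3.1e-08). Slc25a30, an uncoupling-protein-like carrier, was lower by -0.64 ± 0.10 (edgeR adjusted p = 9.45e-06), and Slc25a45, Slc25a43, Slc25a47, Slc25a13 and Slc25a27 had values of -0.72, -0.71, -0.42, -0.32 and -0.23. The call for Slc25a43, which had 195 counts over all libraries, was lost in 13 of 24 fits that left out a library (S2, S3, S4, S6, S7, S8, S13, S15, S16, S18, S20, S22 or S23).

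The higher carriers differed by less. Slc25a35 had the largest value at 0.58 ± 0.08 (edgeR adjusted p = 3.31e-06), with 6.05 to 11 CPM in batch 1 and 10.3 to 17.6 CPM in batch 2. Slc25a53 ranged from 21.1 to 24.9 CPM in batch 1 and from 26.6 to 33.2 CPM in batch 2, without overlap, at 0.40 ± 0.04 (edgeR adjusted p = 4.17e-08). Among the others called higher, Slc25a40 was at 0.43, Slc25a29 at 0.31, the coenzyme A carrier Slc25a42 at 0.28, Slc25a14 at 0.27, Slc25a22 and Slc25a11 at 0.25, Slc25a44 at 0.25, Slc25a12 at 0.24, Slc25a1 at 0.21 and Slc25a51 at 0.13. These include the carriers of the malate-aspartate shuttle, Slc25a11 and Slc25a12, while Slc25a13 went the other way.

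Slc25a5 and Slc25a39, which rose under both ASOs, had batch values of 0.08 ± 0.04 and 0.07 ± 0.05 that did not pass (edgeR adjusted p = 0.0917 and 0.226). All 8 acinar markers were lower and all 8 β-cell markers higher in batch 2, and 6 of 7 markers of α, δ and PP cells were lower. The part of these in the batch differences of the carriers was not tested.

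**Figure D5:**
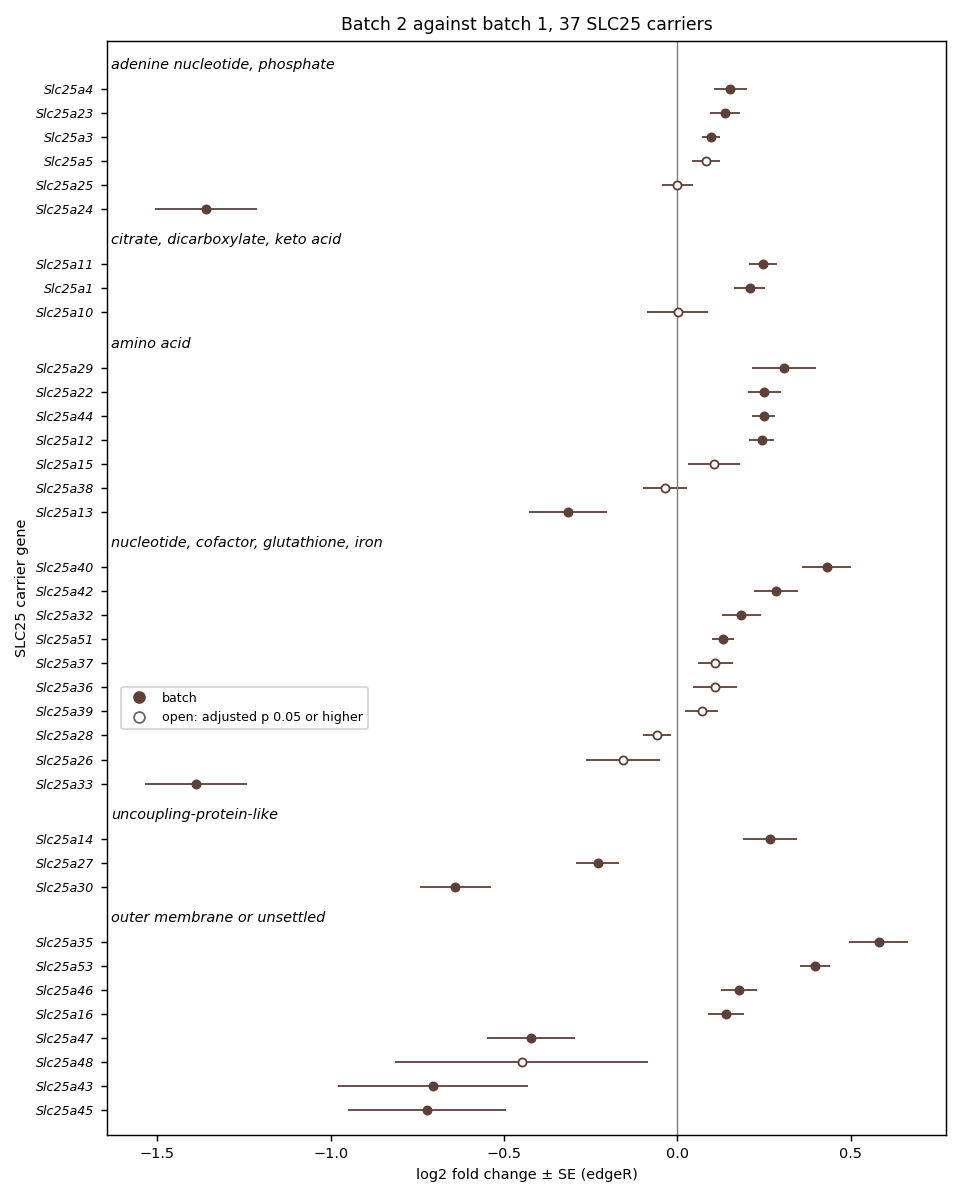
Log2 fold change of batch 2 against batch 1 (± SE, edgeR) of 37 tested carriers, by role. Filled points passed an adjusted p of 0.05. Slc25a33 and Slc25a24 lie at -1.39 and -1.36, apart from the other carriers.

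The related genes were read from 4 small lists, beside 30% of all tested genes called with PA in Ctr and 28.5% in αGlu. Of the family members under other names, 2 of 4 tested rose under each ASO: Ucp2, the uncoupling protein of islets, by 0.47 ± 0.08 in Ctr and 0.59 ± 0.08 in αGlu (edgeR adjusted p = 0.00011 and 6.24e-06), and Mtch2 by 0.25 ± 0.06 and 0.23 ± 0.06 (edgeR adjusted p = 0.00159 and 0.0034). Mtch1 had values of 0.10 and 0.19 that did not pass. Ucp2 averaged 152 CPM (SD 24.1) over the 6 Ctr BSA libraries and 208 CPM (SD 15.2) over the 6 of Ctr PA, and these did not overlap.

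Of 13 genes that import carriers through the TOM70 receptor and the TIM22 complex, 4 rose and 1 fell in Ctr (38.5% called), and 5 rose and 1 fell in αGlu (46.2% called). The genes that give the list its name did not pass in Ctr: Tomm70a had a log2 fold change of 0.12 (edgeR adjusted p = 0.116) and Timm22 of 0.19 (edgeR adjusted p = 0.156). The outer membrane receptor Tomm20 rose by 0.22 ± 0.04 in Ctr and 0.23 ± 0.04 in αGlu (edgeR adjusted p = 0.000269 and 0.000141). The small chaperones of the intermembrane space Timm8a1 and Timm8b rose by 0.59 ± 0.12 and 0.31 ± 0.09 in Ctr (edgeR adjusted p = 0.000743 and 0.0136), and by 0.46 and 0.36 in αGlu. The 1 gene that fell, named after its value was seen, was Timm29, a subunit of the TIM22 complex, at -0.12 in Ctr and -0.21 in αGlu.

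Among 12 other metabolite carriers and pores, 3 rose in Ctr (25% called) and 2 in αGlu (16.7% called), and none fell, which are lower shares than over all tested genes. The outer membrane channels Vdac1 and Vdac3 rose by 0.27 ± 0.04 and 0.31 ± 0.05 in Ctr (edgeR adjusted p = 1.55e-05 and 0.000103) and by 0.23 and 0.21 in αGlu. The calcium uniporter Mcu rose by 0.19 ± 0.06 in Ctr (edgeR adjusted p = 0.0153) and had a value of 0.13 in αGlu that did not pass.

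Of 12 enzymes of the malate-aspartate shuttle and of citrate use, 4 rose and 1 fell under each ASO (41.7% called). The cytosolic aspartate aminotransferase Got1 rose by 0.56 ± 0.07 in Ctr and 0.57 ± 0.07 in αGlu (edgeR adjusted p = 1.31e-06 and 9.32e-07). The isocitrate dehydrogenases Idh1 and Idh2 rose by 0.31 and 0.27 in Ctr and by 0.21 and 0.35 in αGlu. The enzyme that fell, named after its value was seen, was Acly, which splits the citrate that Slc25a1 exports: its log2 fold change was -0.23 ± 0.06 in Ctr and -0.26 ± 0.06 in αGlu (edgeR adjusted p = 0.00558 and 0.00252), while Slc25a1 rose.

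Promoter windows from RefSeq (GRCm38.p6), of 250 bases before each transcription start, were found for 34 of the 45 carriers, in 44 windows. Windows of Slc25a5 and Slc25a1 are shown because these had the largest fitted rises of the 7 carriers that rose under both ASOs, and that of Slc25a24 because it fell in αGlu. They are written 5′ to 3′ on the strand of the gene, and capitals mark CCAAT and GGGCGG or their reverse complements. The windows lie at chrX:36795347-36795596 (plus strand), chr16:17928220-17928469 (minus strand) and chr3:109122899-109123148 (plus strand), and hold 61.6%, 70% and 72.8% G and C.
Slc25a5: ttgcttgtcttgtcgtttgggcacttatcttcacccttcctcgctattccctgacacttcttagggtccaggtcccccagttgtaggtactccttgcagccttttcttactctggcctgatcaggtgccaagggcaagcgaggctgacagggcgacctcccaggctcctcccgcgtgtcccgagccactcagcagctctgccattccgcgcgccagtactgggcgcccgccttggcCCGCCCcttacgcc
Slc25a1: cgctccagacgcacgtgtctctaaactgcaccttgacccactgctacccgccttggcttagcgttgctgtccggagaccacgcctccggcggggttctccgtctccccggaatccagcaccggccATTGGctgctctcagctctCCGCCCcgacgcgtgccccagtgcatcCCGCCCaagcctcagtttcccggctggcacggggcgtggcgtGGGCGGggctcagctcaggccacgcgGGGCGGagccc
Slc25a24: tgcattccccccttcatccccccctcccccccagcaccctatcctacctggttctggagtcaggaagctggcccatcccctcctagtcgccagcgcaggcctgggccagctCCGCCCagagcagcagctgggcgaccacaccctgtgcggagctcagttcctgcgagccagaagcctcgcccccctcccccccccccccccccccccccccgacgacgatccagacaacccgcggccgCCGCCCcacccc
GGGCGG, the letters of an Sp1-type GC box, was present on either strand in 30 of the 44 windows (68.2%), against 32.7% of the 32851 windows of all genes in the RefSeq table. The windows of all genes were not matched to those of the carriers for expression or for G and C content. CCAAT was present in 20 of 44 (45.5%) against 33.8% of all. The NRF1 site was present in 2 of 44 (4.55%) against 3.74%, and the TATA box letters TATAAA in 2 of 44 (4.55%) against 12.4%. The estrogen-related receptor letters TCAAGGTCA were in 0 of 44 windows against 0.387% of all. Of the 6 windows of carriers that rose under both ASOs, 5 held GGGCGG and 4 held CCAAT. Not every such carrier had a window, and Slc25a44 had none. Some carriers have several windows that overlap, such as both of Slc25a23, so these shares are not of independent sequences. The lowered Slc25a24 and Slc25a48 held 2 matches of GGGCGG each, as some of the raised carriers did.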

How the data were processed

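Whole-number exon read counts per gene, deposited by the authors with RPKM, TPM and CPM for 24 mouse islet cell libraries, were used as the test input. Per the methods, poly(A) libraries from a stranded kit were analysed by the authors in a commercial portal with a negative binomial model, and the labels name the genome build GRCm38. For the aligner, the annotation and the strand setting of the counting: not given in the sources used here. TPM values, as deposited by the authors, were used for levels between genes. The 48 RPKM and CPM columns were not used. Empty cells were read as 0, and 1 blank line carried no counts.

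Counts were fitted with edgeR 4.0.16 (R 4.3.3): filterByExpr by group with a minimum count of 10, TMM factors, and the quasi-likelihood F-test with a coefficient per group plus batch over all 24 libraries (19 residual degrees of freedom, biological coefficient of variation 15.4%). Calls used a Benjamini-Hochberg adjusted p below 0.05 over 15916 genes. The threshold of the study, a fold change above 2 with p below 0.05, was counted beside it. CPM here were scaled by the TMM factors, and intervals are at 95%.

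Named carriers were those called with PA or between batches (up to 10 per direction by p), the 3 of smallest p in each comparison without calls, a set of shuttle, citrate and nucleotide carriers, and the carriers below the filter, the 5 carriers of highest mean TPM, and up to 3 genes of smallest p in Ctr PA from each list of related genes. Values of Slc25a51 and Slc25a33 with PA, of Slc25a29 and Slc25a14 between batches, and of Tomm70a and Timm22 stand outside that rule. They were chosen after they were seen. The members, gene lists and marker lists were chosen with earlier results of these data known. Alternatives were DESeq2 1.42.0 (size factors and Wald test), no filter, no batch term, the compared groups or single batches alone, and leaving out each library. Leaving out S1 and S21 together, and then S1 and S23 together, was added after seeing the data.

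On simulated counts for 15776 genes in the Ctr PA comparison, 50 genes were changed at each fold and no batch difference was included. Of these, 40% were recovered at 1.25-fold, 60% at 1.5-fold, 74% at 2-fold and 80% at 0.5-fold. In the data 30% of all tested genes were called, so these shares are not the power of the tests reported. No 2 libraries had identical or near-identical counts. Values of 1 carrier are not reported here; it stays in the counts and is not drawn.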

Additional observations from a re-analysis of the deposited data

Results flagged for a closer look

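Among 136 sets of 6 libraries (34 carriers in 4 groups), the highest or lowest library stood apart from the others in 4, by a gap to the nearest library, over the whole range, above Dixon's 95% value. Chance sets apart about 1 in 20 such groups. All 4 were the Ctr PA library S23. Slc25a36 had 203 CPM in S23 and 122 to 134 CPM in the other Ctr PA libraries. Slc25a46 had 101 CPM against 68.3 to 73.3 CPM. Slc25a16 had 44.3 CPM against 29.4 to 34 CPM, and the folate and FAD carrier Slc25a32 had 44.9 CPM against 30.4 to 35 CPM. S23 was the high library in each. Whether the library or the cells in it set S23 apart was not tested.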

How the results depend on the processing

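Counts of called carriers moved most with the number of libraries and the batch term. With PA in Ctr, 16 carriers were called, and 3 in batch 1 alone and 3 in batch 2 alone. With PA in αGlu, 12 were called, and 5 without a batch term, 5 in batch 1 alone and 5 in batch 2 alone. Single batches hold fewer libraries. All 16 and all 12 called carriers kept their direction within each batch. They were called from these same libraries, so this is no independent check, and it was not counted over all tested genes. Slc25a3 with PA in αGlu turned to -0.0022 in batch 2 alone, and Slc25a13 with PA in αGlu to -0.056 in batch 1 alone, neither called before or after. Leaving out single libraries gave 13 to 17 carriers with PA in Ctr, 9 to 15 with PA in αGlu, 25 to 28 between batches, and 0 in the αGlu comparisons and the interaction. Without S1 and S23 there were 16, 18 and 28, and without S1 and S21 there were 16, 13 and 26 (both settings chosen after seeing the data). With the compared groups only, there were 11 with PA in Ctr and 18 with PA in αGlu, and without a batch term 11 with PA in Ctr. With DESeq2's Wald test there were 16, 12 and 26. No paired analysis was possible because, although by the methods the conditions of a replicate share an animal, the labels give no number that says which libraries do. Depth limits the carriers below 1 TPM, where a few counts set the value.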
